A study of Mus musculus with 16 samples.

Results

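The 10 genes described here are fibroblast growth factor (FGF) genes with a place in heart biology: 6 secreted ligands (Fgf1, Fgf2, Fgf7, Fgf9, Fgf16 and Fgf23), the intracellular FGF homologous factors Fgf12 and Fgf13, and the receptors Fgfr1 and Fgfr2. They were chosen by name, all 10 were found among 19505 measured genes, and each had 1 probe set. RNA came from hearts of 10-week-old male C57BL/6 wild-type mice with 4 hearts in each of 4 groups. The hearts were sham-operated, or went through 30 min of ischemia by tying off the left anterior descending artery and then 6, 24 or 72 h of reperfusion. The question is which FGF genes differ from sham at each time after ischemia, and which differ between the times. The sham hearts carry no time label and serve all 3 times, so time after surgery and reperfusion cannot be told apart. Hours are those of the sample labels, since the series title lists others.

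Secreted FGFs bind receptor tyrosine kinases together with heparan sulfate on the cell surface, and the receptor then signals through the adaptor FRS2, RAS and ERK, with Sprouty proteins, Spred proteins and dual specificity phosphatases as brakes. Hormone-like members such as FGF23 bind heparan sulfate weakly and need a Klotho protein as co-receptor. The FGF homologous factors are not secreted. They bind the tails of voltage-gated sodium channels inside the cell and alter how these channels gate, and in mouse ventricle FGF13 is the main one.

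Values below are deposited log2 signals of single arrays, and a change is a difference of group means of 4 and 4 arrays ± SE. "Rose" and "fell" mean that limma's moderated test, with Benjamini-Hochberg adjustment over all 19505 genes, gave an adjusted p under 0.05. Signals of different genes come from different probes and are not ranked against each other. A signal of 6.76 marks dim levels: 75% of the negative control values, pooled over probe sets and arrays, stay under it. A gene below 6.76 is called dim, not absent, and the size of its change depends on the background. With 4 arrays a group, a log2 change had a median SE of 0.183 over all genes. The labels tell the 4 arrays of a group apart by number only, so p-values measure the spread between these arrays.

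The heart label held: all 9 cardiomyocyte markers were above the dim level in every group, with Myh6 between 17.08 and 18.07 on all 16 arrays. Several arrays stood apart. Replicate 16 of the 24 h group carried atrial RNA markers. Its atrial light chain Myl4 was at 15.22, against 7.34 to 7.93 on the other 24 h arrays. For Myl4, replicates 21 and 23 at 72 h had 9.76 and 9.44 against 7.69 and 7.75. Their Myl7 was higher too (6.07 and 6.18, against 3.58 and 4.19). Sln (5.88 on both) and Bmp10 (3.28 and 3.49) stayed within their sham ranges. For 72 h, the term raised atrial markers below rests on Myl4 and Myl7. Of 6 atrial markers, 2 were above the dim level in every group. Myl7 and Sln were below it on every array but 24 h replicate 16, and Bmp10 on all 16 (3.19 to 4.51). The share of atrium may thus differ between arrays, and how much each sample held was not tested. Replicate 17 of the 24 h group had the lowest mean of 6 neutrophil markers in its group, 6.14, where the highest was 9.72. Endothelial markers fell in 2 of 7 cases at each time, with 1 rise at 6 h, and smooth muscle markers in 2, 3 and 2 of 6 cases, with 1 rise at 72 h. All adipocyte and nerve markers were dim in every group. Cardiomyocyte markers fell in 5 of 9 cases at 24 h and in 4 of 9 at 72 h, macrophage markers rose in 5 of 5 at both times, and fibroblast markers rose in 3 of 6 (with 1 lower) and 6 of 6. In RNA of mixed heart tissue, fewer cells of a type and less RNA per cell cannot be told apart.

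The 3 upstream windows below are shown because Fgf9 had the largest change of the 10 genes and because the 2 homologous factors held the only matches to TGANTCA. This is a loose form of the AP-1 site with any base at N, so a match need not be an AP-1 site. The windows are RefSeq's (GRCm38.p6), from 250 bases before to 50 after an annotated start; 7 of the 10 genes were matched, with 13 windows, and Fgf1, Fgf16 and Fgfr1 were not. Capitals mark TGANTCA, which reads the same on both strands and was the only motif searched.
Fgf9, chr14:58072436-58072735, plus strand: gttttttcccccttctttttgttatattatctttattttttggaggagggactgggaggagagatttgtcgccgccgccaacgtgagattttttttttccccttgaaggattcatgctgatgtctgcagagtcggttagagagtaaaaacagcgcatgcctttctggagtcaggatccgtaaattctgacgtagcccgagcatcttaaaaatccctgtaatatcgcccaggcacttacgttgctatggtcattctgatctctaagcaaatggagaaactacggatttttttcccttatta
Fgf12, chr16:28446026-28446325, minus strand: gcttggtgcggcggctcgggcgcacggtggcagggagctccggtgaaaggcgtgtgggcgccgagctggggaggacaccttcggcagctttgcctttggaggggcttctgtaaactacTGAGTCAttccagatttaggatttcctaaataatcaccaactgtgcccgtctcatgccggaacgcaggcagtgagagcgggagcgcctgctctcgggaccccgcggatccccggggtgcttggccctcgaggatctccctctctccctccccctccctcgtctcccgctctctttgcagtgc
Fgf13, chrX:59166039-59166338, minus strand: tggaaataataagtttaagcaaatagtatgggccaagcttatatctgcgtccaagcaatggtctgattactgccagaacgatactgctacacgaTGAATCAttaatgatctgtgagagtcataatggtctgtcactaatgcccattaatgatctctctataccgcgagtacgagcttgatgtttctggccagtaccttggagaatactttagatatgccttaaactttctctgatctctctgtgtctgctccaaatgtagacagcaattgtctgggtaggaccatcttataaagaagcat
TGANTCA was found in 2 of the 13 windows, and in 7.81% of all 32851 windows of the table. Both matches lie at 1 of 4 annotated starts of their gene, and the array does not say which start was in use. A match is a description of letters only.

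Of the 10 genes, 7 differed among the 4 groups (limma F test), where 44.5% of all genes did. Fgf1, Fgf7, Fgf9, Fgf13, Fgf16, Fgf23 and Fgfr1 passed, with adjusted p from 3.52e-05 for Fgf9 to 0.00776 for Fgf13. Fgf2, Fgf12 and Fgfr2 did not, with adjusted p of 0.701, 0.439 and 0.456. At 6 h, 2 genes rose (Fgfr1, Fgf23) and 2 fell (Fgf9, Fgf7), where 7.92% of all genes rose and 12.3% fell. At 24 h, 1 rose (Fgfr1) and 2 fell (Fgf9, Fgf13), where 13.8% of all genes rose and 12.3% fell. At 72 h, 1 rose (Fgfr1) and 2 fell (Fgf9, Fgf1), against 11.5% and 10.3% of all genes. The median change of the 10 genes was 0.03, -0.36 and -0.32 at the 3 times, beside -0.04, -0.07 and -0.09 for all genes. Of 10 genes, 1 is 10%, so these counts lie near the shares of all genes.

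**Figure D1:**
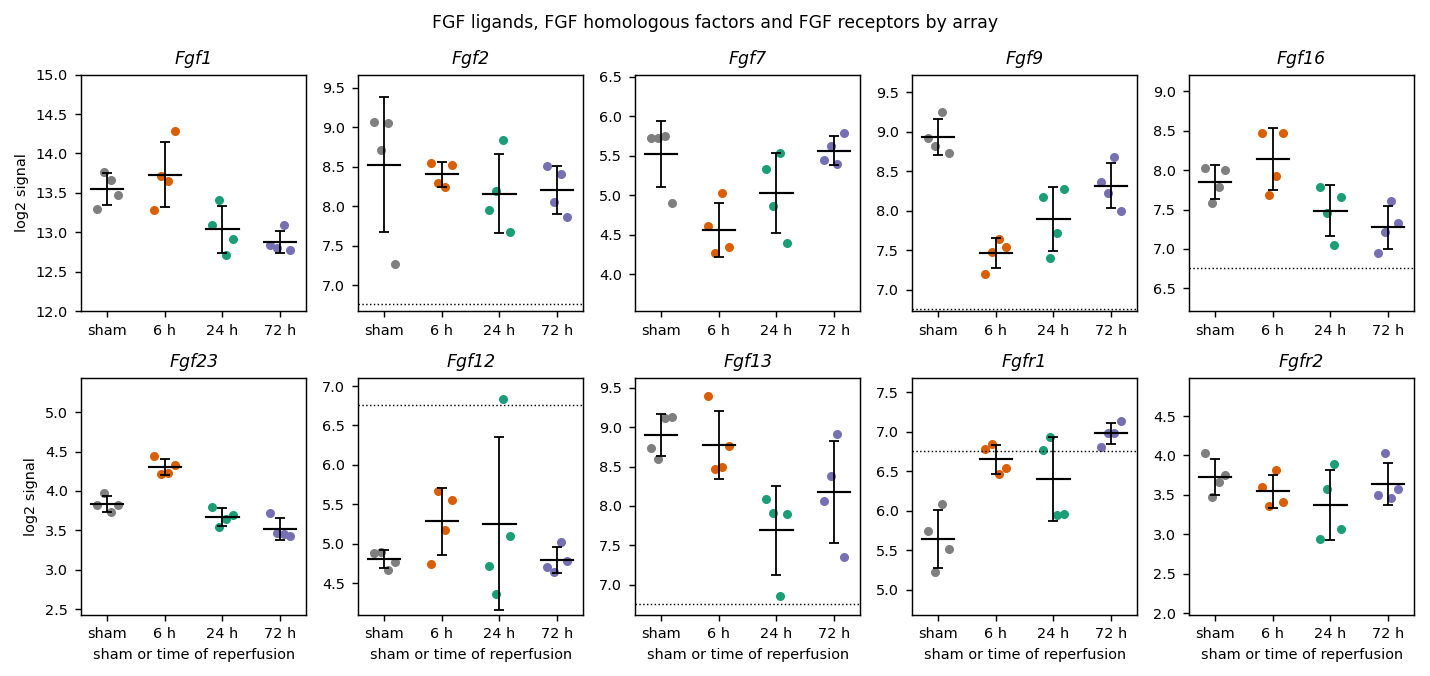
Log2 signal of each of the 10 genes on every array, by sham or hours of reperfusion. Points are arrays, black bars the mean ± SD of 4 arrays, the dotted line the dim level of 6.76, and each panel spans 3 log2 units; Fgf9 lies below sham at all 3 times and Fgfr1 above it by its means.

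Fgf9, a secreted ligand that in the developing mouse heart comes from epicardium and endocardium and drives myocyte growth, fell at all 3 times. Its signals were 8.92, 8.82, 9.25 and 8.73 in sham. They were 7.20, 7.48, 7.64 and 7.54 at 6 h, 8.17, 7.40, 7.72 and 8.28 at 24 h and 8.36, 8.23, 8.68 and 8.00 at 72 h. No reperfused heart reached the lowest sham heart. The change was -1.46 ± 0.19 at 6 h (limma adjusted p = 1.64e-05), a signal 2.76-fold below sham. It was -1.04 ± 0.19 at 24 h (limma adjusted p = 0.00048) and -0.61 ± 0.19 at 72 h (0.0301). The falls at 6 and 24 h passed with every array left out in turn and under every scaling. The 72 h call ended without sham replicate 2 or 4, or without 72 h replicate 20, 21 or 23 (highest adjusted p 0.107), without the 3 arrays with raised atrial markers (-0.41, 0.317), and after centring the arrays on hybridization (-0.11, 0.649) or poly-A (-0.42, 0.261) spike-in controls. Fgf9 was 0.85 ± 0.19 higher at 72 h than at 6 h (limma adjusted p = 0.00225), while the steps of 0.43 from 6 to 24 h and of 0.43 from 24 to 72 h did not pass (0.111 and 0.189); without 24 h replicate 15 the first did (0.59, 0.0305). Under hybridization centring both passed (0.96, 0.0004, and 0.61, 0.0451), and under poly-A centring too (0.67, 0.0312, and 0.71, 0.0389).

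Mesothelial markers, a sign of the outer heart layer, moved in part with Fgf9: their mean over 6 genes was 4.52 to 4.64 in sham, 3.84 to 4.35 at 6 h, 3.79 to 4.02 at 24 h and 4.49 to 5.30 at 72 h. All 6 were below the dim level in every group. Of them 1 (Upk3b) fell at 6 h and at 24 h, and 1 rose at 72 h, when Fgf9 was still below sham. The marker mean was lowest at 24 h (3.90) and that of Fgf9 at 6 h (7.47). The part of these markers' cells in the Fgf9 result was not tested. The 3 genes whose pattern over the 16 arrays lay nearest to Fgf9 were Zfp346, Lekr1 and Ift81, with root mean square differences of 0.21, 0.24 and 0.24 log2 units after each gene was centred on its own mean. Zfp346 averaged 9.43 in sham, 8.21 at 6 h, 8.57 at 24 h and 9.07 at 72 h.

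Fgf16 belongs to the same subfamily as Fgf9 and is made by cardiomyocytes in the mouse. Its signals were 8.03, 7.58, 7.78 and 8.00 in sham, 8.47, 7.69, 7.93 and 8.47 at 6 h, 7.78, 7.45, 7.05 and 7.66 at 24 h and 6.95, 7.21, 7.61 and 7.33 at 72 h. The groups overlapped with sham at all 3 times, and no comparison with sham passed: the changes were 0.29 ± 0.20 at 6 h, -0.36 ± 0.20 at 24 h and -0.57 ± 0.20 at 72 h (limma adjusted p = 0.0507). At 72 h the call was gained without sham replicate 3, 6 h replicate 7, 8 or 11, 24 h replicate 16 or 72 h replicate 22 (lowest adjusted p 0.0305), and after quantile normalization (-0.76, 0.0117) or median centring (-0.68, 0.0181). Between times it was lower at 24 h than at 6 h by -0.65 ± 0.20 (0.0208), a call that ended without 6 h replicate 7 or 11 or 24 h replicate 16 (highest adjusted p 0.0799). It was lower at 72 h than at 6 h by -0.86 ± 0.20 (0.00289), with no overlap of the arrays. Both calls ended under both spike-in centrings. Fgf9 and Fgf16 had their lowest means at different times, Fgf9 at 6 h (7.47) and Fgf16 at 72 h (7.28).

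Fgf1, acidic FGF, is a broad ligand of FGF receptors that lacks a classical signal peptide and is known from cardiomyocytes. It had 13.30, 13.76, 13.66 and 13.47 in sham, 13.29, 13.71, 13.65 and 14.28 at 6 h, 13.10, 13.41, 12.72 and 12.92 at 24 h and 12.84, 12.80, 13.09 and 12.78 at 72 h. The 72 h arrays all lay below the lowest sham array. Fgf1 fell by 0.67 ± 0.19 at 72 h (log2 scale, limma adjusted p = 0.0165), a 1.59-fold lower signal, and the call ended without sham replicate 3 (0.0554). At 24 h the change was -0.51 ± 0.19 (0.0588), short of the threshold, and at 6 h it was 0.19 ± 0.19 (0.59). The 24 h change passed without sham replicate 2, 6 h replicate 7 or 11, or 24 h replicate 15 (lowest adjusted p 0.0281), and under median (-0.58, 0.0304) or poly-A centring (-0.60, 0.0368). Against 6 h, it was lower at 24 h by -0.69 ± 0.19 (0.0101) and at 72 h by -0.85 ± 0.19 (0.00193). These 3 calls of Fgf1 ended under both spike-in centrings, and those at 72 h against sham (-0.58, 0.145) and at 24 h against 6 h (-0.59, 0.0556) also without the 3 arrays with raised atrial markers. The mean of 9 cardiomyocyte markers was 17.44 to 17.49 in sham, 16.81 to 17.20 at 24 h and 17.05 to 17.29 at 72 h, and its part in the lower Fgf1 and Fgf16 signals was not tested.

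Fgf2, basic FGF, likewise leaves cells without a classical signal peptide and is stored in the matrix. Its signals were 9.07, 8.72, 9.06 and 7.27 in sham, 8.55, 8.29, 8.25 and 8.53 at 6 h, 7.95, 8.19, 8.84 and 7.67 at 24 h and 8.51, 8.06, 8.41 and 7.86 at 72 h. Sham replicate 5 was below all 15 other arrays, and the sham SD was 0.86, against 0.15 to 0.50 in the reperfused groups. No comparison passed; the change at 24 h was -0.37 ± 0.31 with a 95% interval of -1.03 to 0.29. A single array decides this gene: without sham replicate 5 the changes were -0.79 at 24 h (limma adjusted p = 0.0164) and -0.74 at 72 h (0.0275).

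Fgf7, the keratinocyte growth factor that mesenchymal cells make and that acts on an epithelial form of FGFR2, was dim on all 16 arrays. It had 5.72, 5.72, 5.75 and 4.90 in sham, 4.61, 4.27, 5.03 and 4.35 at 6 h, 5.33, 4.87, 5.53 and 4.39 at 24 h and 5.45, 5.63, 5.40 and 5.79 at 72 h. Sham replicate 5 lay apart from the other 3 and overlapped with the 6 h arrays. Fgf7 fell by 0.96 ± 0.24 at 6 h on the log2 scale (limma adjusted p = 0.00669) and was 1.01 ± 0.24 higher at 72 h than at 6 h (0.00331), with no overlap between the 2 times. Without sham replicate 5 it was also lower at 24 h (-0.70, 0.0347), and without 24 h replicate 17 it was higher at 24 h than at 6 h (0.68, 0.0313). Under both spike-in centrings Fgf7 was higher at 24 h than at 6 h (1.00, 0.00112, and 0.71, 0.0253). At 72 h the change against sham was 0.05 ± 0.24, with a 95% interval of -0.46 to 0.55. Fibroblast markers, from cells that make this ligand, had means of 10.57 to 10.83 in sham, 10.02 to 10.60 at 6 h and 13.18 to 13.68 at 72 h over 6 genes, and their part was not tested. The nearest patterns were those of Apcdd1, Paip2b and Tmem164, with root mean square differences of 0.29, 0.31 and 0.33.

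Fgf23, the bone hormone that lowers blood phosphate, was dim on all 16 arrays, between 3.43 and 4.44. Its signals were 3.82, 3.98, 3.73 and 3.82 in sham, 4.44, 4.22, 4.23 and 4.33 at 6 h, 3.80, 3.54, 3.64 and 3.70 at 24 h and 3.72, 3.47, 3.46 and 3.43 at 72 h. The 6 h arrays were above all others. The rise at 6 h was 0.47 ± 0.12 (limma adjusted p = 0.0107), and it ended under hybridization spike-in centring (0.25, adjusted p = 0.283) and poly-A centring (0.13, 0.584). Fgf23 was lower than at 6 h by -0.63 ± 0.12 at 24 h (0.000743) and by -0.78 ± 0.12 at 72 h (7.47e-05), and these calls too ended under both spike-in centrings. Against sham the 72 h change was -0.32 ± 0.12 (0.0793), and -0.42 under median centring (0.018). Its co-receptor gene Kl was dim too, with means of 3.91 in sham and 4.08, 3.87 and 3.91 at 6, 24 and 72 h.

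The homologous factors gave 1 fall. Fgf13, whose protein binds cardiac sodium channels, had 8.74, 8.60, 9.12 and 9.13 in sham, 9.39, 8.47, 8.49 and 8.76 at 6 h, 8.09, 7.91, 6.86 and 7.90 at 24 h and 8.06, 8.38, 8.91 and 7.36 at 72 h. All 4 arrays at 24 h lay below all sham and 6 h arrays, while the 72 h arrays spread over both. The gene fell by 1.21 ± 0.30 at 24 h (log2 scale, limma adjusted p = 0.00498), a 2.31-fold lower signal, and had a change of -0.12 ± 0.30 at 6 h and of -0.72 ± 0.30 at 72 h (0.096), where it passed without 72 h replicate 22 (-0.96, 0.0268), after quantile normalization (-0.86, 0.0474) and under median centring (-0.83, 0.0468). It was lower at 24 h than at 6 h by -1.08 ± 0.30 (0.0102). That call ended under hybridization centring (-0.56, 0.119) and with 24 h replicates 16 and 17 both out (-0.77, 0.0943). Without 72 h replicate 22 it was also lower at 72 h than at 6 h (-0.84, 0.042). The fall at 24 h passed with each single array left out and under each scaling, but not with 24 h replicates 16 and 17 both out (-0.90, adjusted p = 0.0588).

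Fgf12 did not pass in any comparison. It was dim on 15 of 16 arrays, with 4.89, 4.90, 4.67 and 4.77 in sham, 4.74, 5.67, 5.17 and 5.56 at 6 h, 4.72, 4.37, 6.84 and 5.10 at 24 h and 4.71, 4.65, 5.03 and 4.78 at 72 h. The exception was 24 h replicate 16, the array with Myl4 at 15.22. That array also had the lowest Fgf13 signal of all 16. The change of Fgf12 at 24 h was 0.45 ± 0.35 with the array and -0.07 without it, and the part of atrial tissue in it was not tested. With 24 h replicates 16 and 17 both out, it was lower at 24 h than at 6 h (-0.73, 0.0212) and at 72 h than at 6 h (-0.49, 0.0483). At 72 h replicates 21 and 23, where Myl4 was raised less, Fgf12 was at 4.65 and 4.78, within the range of the group.

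**Figure D2:**
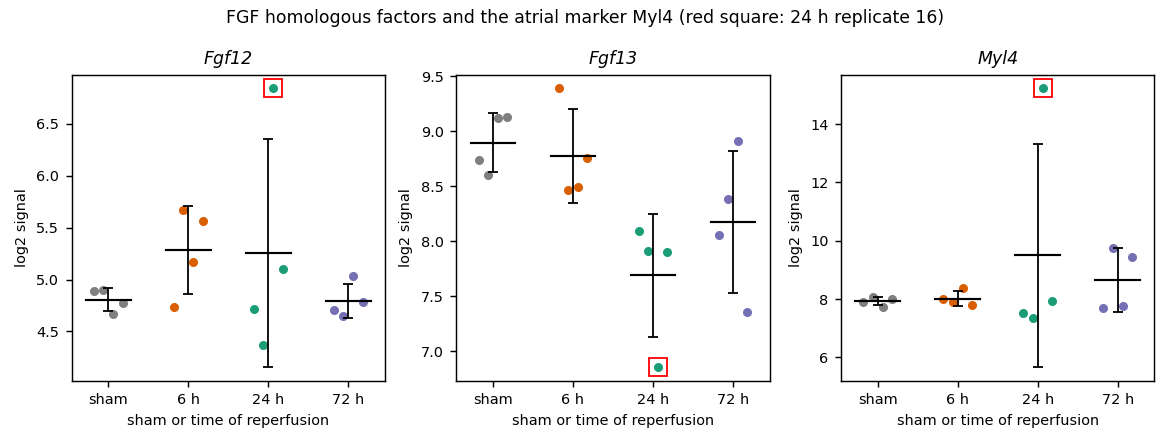
Log2 signal of Fgf12, Fgf13 and the atrial light chain gene Myl4 on every array, by sham or hours of reperfusion, with the mean ± SD of 4 arrays in black. The red square marks 24 h replicate 16, at 6.84 for Fgf12, 6.86 for Fgf13 and 15.22 for Myl4.

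Sodium channel subunit genes, the partners of the homologous factors, were measured for 7 of 10 named. At 6 h 1 rose and 0 fell, at 24 h 0 rose and 3 fell, and at 72 h 0 rose and 1 fell. The list medians were 0.19, -0.23 and -0.19, beside -0.04, -0.07 and -0.09 for all genes. Among all genes 7.92%, 13.8% and 11.5% rose and 12.3%, 12.3% and 10.3% fell. With 7 genes, counts of 0 or 1 lie near these shares. Under hybridization centring 0 passed at 6 and 24 h, with a 24 h median of 0.08, and 2 rose at 72 h. Under poly-A centring 1 fell at 6 h, 2 fell at 24 h and 0 passed at 72 h. Scn4b, a beta subunit, fell by 0.95 ± 0.23 at 24 h (limma adjusted p = 0.00407) with means of 4.66 at 24 h and 5.61 in sham, both dim. Scn3a, an alpha subunit known from neurons, rose by 0.65 ± 0.19 at 6 h (0.0209) and fell by 0.55 ± 0.19 at 24 h (0.0441). Scn2b fell by 0.54 ± 0.18 at 24 h (0.0357) and by 0.53 ± 0.18 at 72 h (0.0444). The genes nearest to Fgf13 in pattern were Abcb10, Rab12 and Trpc1, with root mean square differences of 0.30, 0.30 and 0.32.

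Fgfr1, the receptor of cardiomyocytes and fibroblasts for Fgf1, Fgf2 and others, rose at all 3 times. It had 5.74, 5.23, 6.09 and 5.51 in sham, 6.78, 6.84, 6.46 and 6.54 at 6 h, 6.77, 6.94, 5.94 and 5.96 at 24 h and 6.81, 6.99, 6.99 and 7.14 at 72 h. All sham arrays were below the dim level of 6.76, and 2 arrays at 6 h, 2 at 24 h and all at 72 h were above it. The 72 h arrays lay just above that level (6.81 to 7.14), so the size of the Fgfr1 change depends on the background. The arrays at 6 h and at 72 h did not overlap with sham; at 24 h replicates 16 and 17 lay below sham replicate 4. The change was 1.01 ± 0.22 at 6 h (limma adjusted p = 0.0022), 0.76 ± 0.22 at 24 h (0.0142) and 1.34 ± 0.22 at 72 h (0.000167). At 24 h the call ended without sham replicate 3 (0.62), 24 h replicate 14 (0.64) or 24 h replicate 15 (0.58), with a highest adjusted p of 0.0653. On the deposited scale no pair of times passed for Fgfr1; the difference of 72 h from 24 h was 0.58 ± 0.22 (0.0998), and 0.76 without 24 h replicate 15 (0.0321). It passed under hybridization (0.77, 0.0461) and poly-A centring (0.86, 0.00931), as did the difference of 72 h from 6 h (1.04, 0.00103, and 0.85, 0.00319), which was 0.33 ± 0.22 on the deposited scale. The rises at all 3 times kept their call under both spike-in centrings, at 0.79, 1.07 and 1.84 with hybridization and 0.68, 0.66 and 1.53 with poly-A spike-ins.

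Fibroblast and macrophage markers rose at 72 h, when Fgfr1 was highest, while at 6 h 0 of 6 fibroblast markers rose and 1 fell and 1 of 5 macrophage markers rose (Itgam). Neutrophil markers rose in 6 of 6 cases at 6 h and at 24 h and in 2 of 6 at 72 h, with array means of 7.74 to 10.15 at 6 h, 6.14 to 9.72 at 24 h and 5.27 to 6.71 at 72 h, against 4.15 to 4.60 in sham. The part of these cell types in the Fgfr1 rise was not tested. The nearest patterns to Fgfr1 were those of Sowahc, Egfr and Adap2, with root mean square differences of 0.28, 0.30 and 0.32. Egfr, another receptor tyrosine kinase, averaged 4.97 in sham, 5.43 at 6 h, 5.31 at 24 h and 5.63 at 72 h. Fgfr2, which in its epithelial form takes Fgf7, was dim on all arrays. It had 4.03, 3.47, 3.66 and 3.75 in sham, 3.60, 3.36, 3.82 and 3.41 at 6 h, 2.94, 3.58, 3.89 and 3.07 at 24 h and 3.50, 4.03, 3.46 and 3.57 at 72 h, with overlap between all groups. Its changes were -0.18 ± 0.20 at 6 h, -0.36 ± 0.20 at 24 h and -0.09 ± 0.20 at 72 h, with 95% intervals of -0.60 to 0.24, -0.78 to 0.06 and -0.51 to 0.33. It was lower at 6 h under poly-A centring (-0.52, 0.0348), and higher at 72 h than at 6 h under hybridization (0.81, 0.00247) and poly-A centring (0.62, 0.00904).

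**Figure D3:**
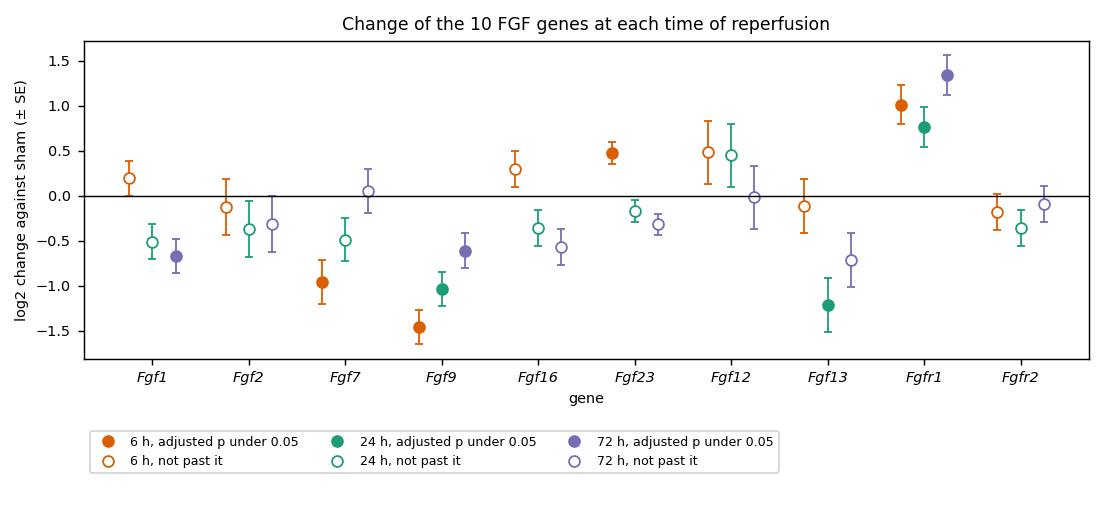
Log2 change of each of the 10 genes against sham at 6, 24 and 72 h (± SE, 4 against 4 arrays). Filled points passed an adjusted p of 0.05 over all genes. Fgf9 is below 0 and Fgfr1 above 0 with filled points at all 3 times.

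Between the times, 4 of the 10 genes were lower at 24 h than at 6 h (Fgf1, Fgf13, Fgf16, Fgf23) and 0 were higher, where 10.9% of all genes were lower and 17.3% higher. The balance turned with the scale: under hybridization centring 2 were higher (Fgf7, Fgf9) and 0 lower, and under poly-A centring 2 were higher (Fgf7, Fgf9) and 1 lower (Fgf13). From 24 to 72 h 0 of 10 passed in limma at the adjusted threshold, where 6.85% of all genes were higher and 6.07% lower; at an unadjusted p under 0.05, 3 were higher (Fgf7 0.54, Fgf9 0.43 and Fgfr1 0.58). These 3 passed the adjusted threshold under both spike-in centrings, and Fgfr2 under poly-A centring (0.55, 0.0469). From 6 to 72 h 2 were higher (Fgf7, Fgf9) and 3 lower (Fgf1, Fgf16, Fgf23), where 17.5% of all genes were higher and 13.1% lower. Under either spike-in centring 4 were higher (Fgf7, Fgf9, Fgfr1, Fgfr2) and 0 lower. These comparisons share arrays with each other and with the comparisons against sham.

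Of the other FGF ligands, 13 of 14 named were measured, and 1 rose and 2 fell at 6 h, 1 rose and 1 fell at 24 h and 0 rose and 1 fell at 72 h, with medians of 0.08, -0.15 and -0.15. These counts are near the shares of all genes, of which 7.92%, 13.8% and 11.5% rose and 12.3%, 12.3% and 10.3% fell at the 3 times. Fgf10, a mesenchymal ligand, fell by 0.63 ± 0.20 at 6 h (limma adjusted p = 0.0276), and Fgf11, a further homologous factor, by 0.56 ± 0.15 (0.0105). Fgf5 rose by 0.54 ± 0.15 at 6 h (0.0116). These 3 genes were dim in both groups. Fgf18, a ligand known from cartilage and lung growth, rose by 0.60 ± 0.21 at 24 h (0.037) and fell by 0.62 ± 0.21 at 72 h (0.0375); the first call ended under quantile, median and poly-A scaling (highest adjusted p 0.132). Under both spike-in centrings 0 of the 13 were higher at 6 h and 0 lower at 72 h. Of 5 other receptors and Klotho genes, only Fgfrl1 passed against sham on the deposited scale: this decoy receptor without a kinase domain fell by 0.80 ± 0.19 at 24 h (0.00309), with means of 7.27 at 24 h and 8.07 in sham, and had changes of 0.03 and -0.04 at 6 and 72 h. Under hybridization centring the fall ended (-0.49, adjusted p = 0.112), and of the 5 genes 1 rose at 24 h and 2 at 72 h.

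Heparan sulfate carriers and enzymes, which hold FGFs at the cell surface and shape their binding sites, were measured for 17 of 18 named. At 6 h 3 rose and 0 fell, at 24 h 6 rose and 3 fell, and at 72 h 8 rose and 0 fell, with medians of -0.01, 0.25 and 0.35 beside -0.04, -0.07 and -0.09 for all genes. The shares of all genes were 7.92%, 13.8% and 11.5% for rises and 12.3%, 12.3% and 10.3% for falls. Syndecan-4 (Sdc4), a membrane proteoglycan, rose by 4.59 ± 0.19 at 6 h (limma adjusted p = 1.00e-11), with means of 12.34 at 6 h and 7.75 in sham. Syndecan-3 (Sdc3) rose by 2.01 ± 0.22 at 72 h (1.71e-06). Sulf1, which trims 6-O-sulfates from heparan sulfate, rose by 1.02 ± 0.18 at 6 h, 0.97 ± 0.18 at 24 h and 1.98 ± 0.18 at 72 h. Glypican-1 (Gpc1) fell by 1.43 ± 0.17 at 24 h (4.34e-06), along with Gpc3 and Gpc4. At 6 h the count of falls depended on the scale, with 4 lower under hybridization and 7 under poly-A spike-in centring, and at 72 h hybridization centring gave 12 rises. The fall of Gpc4 ended under hybridization centring (-0.23, 0.446).

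Signalling genes downstream of the receptors went both ways. Of 12 measured of 18 named genes of the chain from adaptor to ERK, 3 rose and 3 fell at 6 h, 4 rose and 3 fell at 24 h and 3 rose and 1 fell at 72 h. Of all genes 7.92%, 13.8% and 11.5% rose and 12.3%, 12.3% and 10.3% fell at these times. Under hybridization centring the list had 1 rise and 3 falls at 6 h, 4 and 1 at 24 h and 6 and 1 at 72 h, and under poly-A centring 1 and 4, 2 and 3, and 4 and 1. Nras, a RAS protein, rose by 1.05 ± 0.21, 1.75 ± 0.21 and 0.94 ± 0.21 at the 3 times, and the adaptor Grb2 by 0.57 ± 0.16, 0.84 ± 0.16 and 0.52 ± 0.16; the Grb2 call at 6 h ended under both spike-in centrings (0.35, 0.179, and 0.24, 0.353), and that at 72 h under median centring (0.41, 0.0677). The docking protein gene Gab1 fell by 1.34 ± 0.17 at 6 h (limma adjusted p = 7.40e-06), and Ptpn11, the phosphatase SHP2, fell by 1.06 ± 0.16 at 72 h (6.79e-05).

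Feedback and target genes of FGF and ERK signalling had 5 rises and 3 falls among 15 at 6 h, 3 rises and 2 falls at 24 h and 2 rises and 1 fall at 72 h. At these times 7.92%, 13.8% and 11.5% of all genes rose and 12.3%, 12.3% and 10.3% fell. The counts at 24 and 72 h lie near these shares. All 3 Sprouty genes of the list rose at 6 h: Spry1 by 1.69 ± 0.20, Spry2 by 1.24 ± 0.17 and Spry4 by 1.73 ± 0.20. At 24 h their changes were 0.03, -0.11 and -0.11, none past the threshold. Dusp5, a nuclear ERK phosphatase, rose by 2.79 ± 0.33 at 6 h (limma adjusted p = 4.65e-06), and Spred1, an inhibitor of RAS activation, by 1.81 ± 0.17 (3.38e-07). Other brakes did not pass at 6 h, among them Dusp6 (0.74, 0.0846) and Dusp4 (0.22, 0.555). Flrt2 went the other way at 6 h, with a fall of 1.39 ± 0.20 (3.50e-05). It rose by 0.57 ± 0.20 at 24 h (0.0397) and by 1.16 ± 0.20 at 72 h (0.000245). Of the ETS factors that FGF signalling induces in embryos, Etv1 fell by 0.73 ± 0.19 at 6 h (0.00743), and Etv4 and Etv5 had changes of -0.37 and 0.03 that did not pass. The genes of this list answer to other growth factors and cytokines too, and which signal moved them was not tested. The 5 rises at 6 h were also 5 under each of the 4 other scalings, while the falls were 5 under both spike-in centrings. At 24 h the rises were 5 under hybridization centring and 1 under each of the other 3 scalings.

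**Figure D4:**
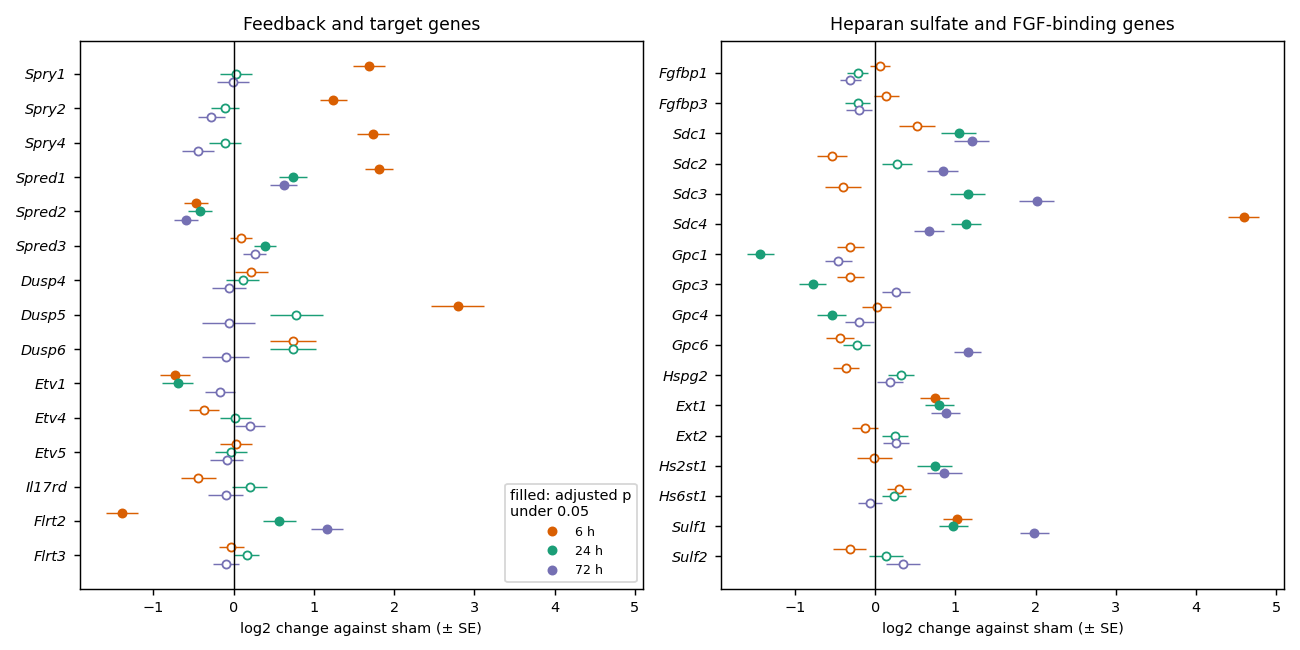
Log2 change against sham at 6, 24 and 72 h (± SE, 4 against 4 arrays) of 15 feedback and target genes and 17 heparan sulfate and FGF-binding genes. Filled points passed an adjusted p of 0.05. Sprouty genes and Dusp5 are raised at 6 h, Sdc4 reaches 4.59 at 6 h, and Sdc3 and Sulf1 are highest at 72 h.

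Around Fgf23, of 10 measured genes of phosphate and vitamin D handling, 1 rose at 6 h, 1 at 24 h and 2 at 72 h, with 0 falls. For all genes the shares were 7.92%, 13.8% and 11.5% higher and 12.3%, 12.3% and 10.3% lower. Under hybridization centring 4 rose at 24 h and 6 at 72 h, and under either spike-in centring 1 fell at 6 h (Fam20c). Slc20a1, a phosphate importer found in most cells, rose by 1.35 ± 0.19 at 6 h (limma adjusted p = 3.32e-05). Fam20c, the kinase that phosphorylates secreted proteins including FGF23, rose by 0.77 ± 0.19 at 24 h (0.00392) and by 0.72 ± 0.19 at 72 h (0.00866). Vdr, the vitamin D receptor, rose by 0.43 ± 0.13 at 72 h (0.0246), a call that ended under quantile normalization (0.23, 0.275) and median centring (0.33, 0.0727).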

How the data were processed

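RNA of 16 mouse hearts was hybridised to 1 Affymetrix array each. The deposited table holds 1 log2 value for each of 28846 probe sets per array; Affymetrix Expression Console is the software named, per the submitters' processing notes. Its version and summarization were not stated. No source states the base of the log, which was read as 2. Values ran from 1.83 to 19.82 and array medians from 5.84 to 5.95, so the arrays were used as deposited, and folds hold on the authors' scale. The array type in the design text differs from that of the table's identifiers, which were used. No 2 arrays were identical (0 pairs).

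The platform annotation gave the gene names (19572 probe sets with 1 symbol, 0 with several, 9274 with none here), and the probe set with the highest mean was kept for 55 genes with several, leaving 19505 genes. One model of the 4 group means over the 16 arrays was fitted by lmFit and eBayes in limma 3.58.1 under R 4.3.3 (12 residual and 6.943 prior degrees of freedom), for each time against sham and each pair of times, with Benjamini-Hochberg adjustment over all genes. The number of arrays limits the precision. On simulated data for 24 h against sham over 19505 genes, 6% of genes changed by 0.5, 76% by 1, 100% by 2 and 100% by 3 (log2) were called, 50 genes each, with 8 false calls among 149. No other genes were changed in the simulation, while 5093 were called at 24 h against sham in the data. The adjusted threshold then lies at a looser p-value, so these rates are not those of the reported test. The 10 genes and all lists were chosen with earlier results of these data known. Named genes are the 10, up to 4 genes of each list with the largest change past the threshold against sham, and, for genes past the F test whose group means span at least 1, the 3 nearest patterns; further genes of the lists were named after their values were seen. Alternatives were quantile normalization, median centring, centring on 4 hybridization or 4 poly-A spike-in probe sets, the mean of probe sets, 2 filters on dim genes, eBayes with a trend or robust, arrayWeights, a fit of just the compared groups, and leaving out each array. Leaving out 24 h replicates 16 and 17 together, and the 3 arrays with raised atrial markers together, were added after seeing the data. Python 3.11.15 and matplotlib 3.10.9 were used for tables and figures. Protein sequences were not used here.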

Additional observations from a re-analysis of the deposited data

Results flagged for a closer look

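Single arrays lay far from the other 3 of their group for 3 of 40 gene and group pairs, where chance flags about 1 in 20, or 2. Fgf7 was at 4.90 on sham replicate 5, against 5.72 to 5.75 on the other sham arrays. Fgf13 was at 6.86 on 24 h replicate 16, the array with raised atrial markers, against 7.90 to 8.09. Fgf23 was at 3.72 on 72 h replicate 20, against 3.43 to 3.47, all of them dim.

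The change against sham differed between times, by limma's test of the difference itself, for 9 pairs of gene and times. From 6 to 24 h the change moved by -0.69 for Fgf1, by -1.08 for Fgf13, by -0.65 for Fgf16 and by -0.63 for Fgf23, with adjusted p of 0.0101, 0.0102, 0.0208 and 0.000743. From 6 to 72 h it moved by -0.85 for Fgf1, 1.01 for Fgf7, 0.85 for Fgf9, -0.86 for Fgf16 and -0.78 for Fgf23, with adjusted p of 0.00193, 0.00331, 0.00225, 0.00289 and 7.47e-05. Fgf7 and Fgf9 were nearer to sham at 72 h than at 6 h.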

How the results depend on the processing

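No call of the 10 genes turned its direction under any alternative run; sign changes of values that passed under neither setting are not counted. Centring on hybridization spike-ins moved the median change of all genes to -0.26, 0.24 and 0.40 at 6, 24 and 72 h, and poly-A centring to -0.37, -0.16 and 0.09, so small changes depend on the scale. At 6 h against sham 4 FGF genes passed; 2 did among genes above the median signal and 1 among genes above the dim level, where fewer genes were tested. At 72 h against sham 3 passed, with 5 after quantile normalization, 6 after median centring, 1 under either spike-in centring and 1 without the 3 arrays with raised atrial markers. For 24 h against 6 h 4 passed, all lower. Under hybridization centring 2 passed, neither among those 4 and both higher (Fgf7, Fgf9); 2 passed without those 3 arrays, and 2 without 24 h replicates 16 and 17. From 24 to 72 h 0 passed, with 3 under hybridization and 4 under poly-A centring, all higher. For 72 h against 6 h 5 passed (2 higher, 3 lower), with 3 under either filter on dim genes and 4, all higher, under either spike-in centring. The F test passed 7, with 4 under hybridization centring and 4 above the dim level. With 1 array left out, the counts were 4 to 4, 2 to 5 and 2 to 5 against sham at 6, 24 and 72 h, 3 to 5 for 24 h against 6 h, 0 to 1 for 72 h against 24 h, 5 to 6 for 72 h against 6 h, and 7 to 8 in the F test; the most at 24 h came without sham replicate 5 and at 72 h without 72 h replicate 22.

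Of all genes, the calls moved by over 1.5 times under hybridization centring (7517 at 72 h against sham, 10350 for 24 h against 6 h, 14108 for 72 h against 6 h and 13748 in the F test), under poly-A centring (6951 at 6 h against sham and 9788 for 72 h against 6 h), and without the 3 arrays with raised atrial markers (2331 at 72 h against sham and 1224 for 72 h against 24 h), against 3940, 4251, 5507, 2520, 5959 and 8677 on the deposited scale in the order 6 h and 72 h against sham, 24 h against 6 h, 72 h against 24 h, 72 h against 6 h and F test. The share of calls that were higher moved too. On the deposited scale it was 39.2% at 6 h, 53.0% at 24 h and 52.9% at 72 h against sham, 61.2% for 24 h against 6 h, 53.1% for 72 h against 24 h and 57.2% for 72 h against 6 h. In the same order it was 19.6%, 84.4%, 96.7%, 94.8%, 79.9% and 96.6% under hybridization centring, and 12.4%, 45.1%, 82.3%, 85.5%, 86.7% and 93.7% under poly-A centring. Median centring gave 42.5% at 24 h and 35.0% at 72 h against sham, 45.4% for 24 h against 6 h and 37.7% for 72 h against 6 h. With 1 array left out, the calls of all genes were 3260 to 4083, 4218 to 5564 and 3201 to 4411 against sham at 6, 24 and 72 h, 4523 to 5880 for 24 h against 6 h, 1899 to 2780 for 72 h against 24 h, 5039 to 6114 for 72 h against 6 h and 8028 to 9003 in the F test. The cause was not tested. No paired analysis was possible because the groups share no replicate numbers. The F test was not run with only the 2 groups compared. Fgf7, Fgf12, Fgf23 and Fgfr2 were left out by both filters on dim genes, and Fgfr1 by the one at the dim level.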
